A study of Mus musculus with 4 samples.

Results

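Receptors for extracellular nucleotides, adenosine, sphingosine 1-phosphate and prostaglandin E2 were followed through 4 stages of osteoclast formation from mouse marrow, each measured on 1 expression array. The set was a list of 10 gene symbols looked up among 18193 genes with a probe set named for a single gene. For 8 of them such a probe set was found: the P2Y receptors P2ry2, P2ry6, P2ry12 and P2ry14, the ATP-gated channel P2rx4, the sphingosine 1-phosphate receptors S1pr1 and S1pr2, and the prostaglandin receptor Ptger4. The adenosine receptors Adora2a and Adora2b had none in the annotation given and were not analysed here. All cells came from C57BL/6 mice aged 8 to 10 weeks. Bone marrow macrophages (BMM) were marrow cells grown for 3 days with M-CSF, the macrophage growth factor, at 100 ng/ml. Pre-osteoclasts (pOC) were mononuclear cells positive for TRAP, an osteoclast enzyme, obtained from BMM after 2 days with M-CSF and RANKL, the cytokine that drives osteoclast formation, each at 100 ng/ml. Mature multinucleated osteoclasts came from pOC after 2 further days with both cytokines, on plastic (mOCp) or on dentin slices that they resorb (mOCd). M-CSF was present at every stage. Whether the marrow of several animals was pooled is not stated in the labels.

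Cells release ATP, ADP, UTP and UDP when they are stressed, stretched or dying. P2Y receptors are G protein-coupled sensors of these nucleotides and of sugar nucleotides, and P2X receptors are cation channels opened by ATP. Ectoenzymes break nucleotides down to adenosine, which acts on receptors of its own. Sphingosine 1-phosphate is a lipid abundant in blood that steers the movement of leukocytes, and in mice it directs osteoclast precursors between blood and bone. Prostaglandin E2 acts on several receptors, and EP4, the product of Ptger4, raises cyclic AMP.

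Values are linear intensities from the MAS5 algorithm, in arbitrary units. The 50th percentile of an array is called the floor here, and lay at 12.7 in BMM, 14.5 in pOC, then 14.8 in mOCp and 15.8 in mOCd. The 75th percentile lay between 77.8 and 87.0. Values under the floor were set to it before ratios were taken, so a ratio with 1 value under the floor is a bound, written as at least N-fold. Genes counted here as higher or lower had a ratio of at least 2-fold and a brighter value that reached the 75th percentile of its array, and genes that met the brightness condition are called eligible. With 1 array per stage there are no replicates, no p-value and no standard error, and precision is limited by the number of arrays. As a guide to error, the log2 ratios of 2 probe sets of the same gene were compared. The SD of their difference, divided by the square root of 2, lay between 0.408 and 0.520 in the 4 comparisons. This value, called the probe-set disagreement here, leaves out the spread between animals and cultures.

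The labelled stages were checked against markers. The intensities of 10 osteoclast genes summed to 251 in BMM and 32519.8 in pOC, and 50166 in mOCp and 51729 in mOCd. Those of 10 macrophage genes summed to 29628 in BMM, 11101 in pOC, then 19477 in mOCp and 16457 in mOCd, and 8 of the 10 were lower in pOC than in BMM. Most of the list was thus lower in pOC, as were most receptors described next. From pOC to mOCp the sum rose, while 5 of the 8 receptor ratios lay above 0 and 3 (P2ry6, P2ry14 and P2rx4) below it. Much of the sum was Csf1r and Cd68, not counted as lower in pOC (4898.6 and 5096.2, against 5815.9 and 4155.4 in BMM). The part of the list in the receptor values was not tested. No macrophage marker was listed at 0, and the dimmest, Mertk, read 10.4 in mOCd. In such bulk RNA, fewer cells of a type and less RNA per cell cannot be told apart.

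In pOC, after 2 days of RANKL, 6 of the 8 receptors were lower than in BMM and 0 were higher. Those were P2ry6, P2ry12, P2rx4, S1pr1, S1pr2 and Ptger4, by 2.04-fold to 9.01-fold. Of 7256 eligible genes, 13.2% were lower and 11.1% higher in the same comparison. All 6 eligible receptors were among the lower ones, but 3 of them, P2ry12, S1pr1 and Ptger4, were eligible only through their BMM value, so being eligible and being lower went together. The receptors were also listed with earlier results of these data known. The median log2 ratio of the 8 receptors was -2.09 in pOC against BMM, beside 0.09 over all measured genes. RANKL and 2 further days of culture cannot be told apart in this comparison.

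**Figure D1:**
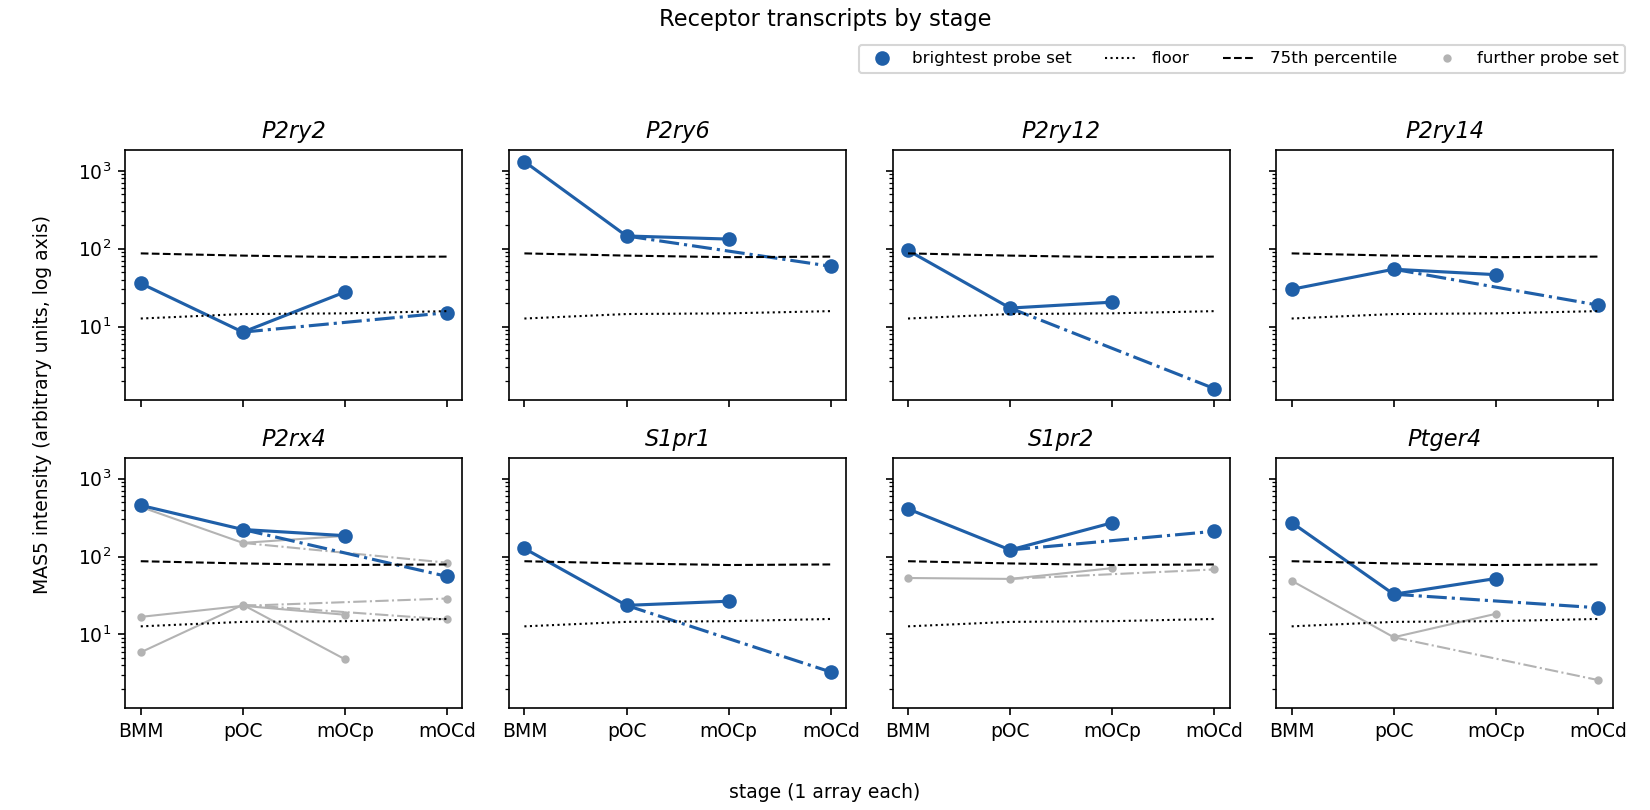
MAS5 intensity (log axis) of each receptor transcript at the 4 stages, with 1 array per point. Solid lines join BMM, pOC and mOCp, dash-dotted lines join pOC and mOCd, grey points are further probe sets of the same gene, and black lines mark the floor (dotted) and the 75th percentile (dashed). P2ry6 stood at 1312.3 in BMM and at 59.5 in mOCd, while S1pr2 stood lowest in pOC, at 121.4.

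The 4 measured receptors with a single start site in the RefSeq promoter table (assembly GRCm38.p6) are shown with the 250 bases before that start, because they include receptors that were lower in pOC and stayed low (P2ry12, Ptger4), the receptor that was higher again in mOCp (S1pr2), and the one lowest on dentin by the widest measured margin (P2rx4). Capitals mark matches, on either strand, to the cyclic AMP response element TGACGTCA, the AP-1 motif TGANTCA, the hypoxia response core ACGTG and the GC box GGGCGG. The windows are chr9:20976794-20977043 (minus strand) for S1pr2, chr3:59262986-59263235 (minus strand) for P2ry12, chr15:5244188-5244437 (minus strand) for Ptger4 and chr5:122707294-122707543 (plus strand) for P2rx4.
S1pr2: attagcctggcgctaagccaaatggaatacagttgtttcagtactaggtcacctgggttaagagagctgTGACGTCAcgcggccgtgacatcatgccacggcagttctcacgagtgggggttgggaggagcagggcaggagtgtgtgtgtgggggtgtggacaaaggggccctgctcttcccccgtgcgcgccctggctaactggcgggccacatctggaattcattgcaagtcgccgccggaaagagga
P2ry12: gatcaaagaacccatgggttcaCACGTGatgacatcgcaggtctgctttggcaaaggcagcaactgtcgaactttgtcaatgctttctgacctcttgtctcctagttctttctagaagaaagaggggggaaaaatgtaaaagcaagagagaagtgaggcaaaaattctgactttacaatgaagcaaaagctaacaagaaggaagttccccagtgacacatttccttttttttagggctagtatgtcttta
Ptger4: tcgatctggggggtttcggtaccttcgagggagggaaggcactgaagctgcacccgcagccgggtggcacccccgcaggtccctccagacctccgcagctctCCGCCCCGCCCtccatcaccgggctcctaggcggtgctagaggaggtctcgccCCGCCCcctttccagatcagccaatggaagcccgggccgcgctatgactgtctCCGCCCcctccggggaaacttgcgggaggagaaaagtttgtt
P2rx4: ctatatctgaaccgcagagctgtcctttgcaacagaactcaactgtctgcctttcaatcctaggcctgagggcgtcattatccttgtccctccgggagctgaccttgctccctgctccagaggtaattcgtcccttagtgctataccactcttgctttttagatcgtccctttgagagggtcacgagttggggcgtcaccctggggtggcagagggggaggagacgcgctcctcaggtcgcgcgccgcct
The S1pr2 window held TGACGTCA, beginning 181 bases before the start, a palindrome found in 1.62% of 27025 RefSeq windows of this length. P2ry12 held CACGTG, where the hypoxia core overlaps itself on the opposite strand, beginning 228 bases before the start, and 16.6% of all windows held that core. Ptger4 held 4 GC boxes, of which the pair nearest to each other overlap by 1 base, and 32.9% of all windows held at least 1. P2rx4 had 0 matches to the 4 motifs. AP-1 letters stood in 6.87% of all windows and in 0 of these 4. Such matches describe the letters only.

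Among the P2Y receptors, P2ry6, which encodes the UDP receptor of macrophages, had the widest range. Its single probe set read 1312.3 in BMM and 145.6 in pOC, and 132.8 in mOCp and 59.5 in mOCd. It was highest in BMM, near-equal in pOC and mOCp, and lowest on dentin. The intensity was 9.01-fold lower in pOC than in BMM (log2 ratio -3.17), and only 98 of the 7256 eligible genes had a lower ratio. Between mOCp and pOC the log2 ratio was -0.13, inside the probe-set disagreement of 0.410. On dentin P2ry6 was 2.23-fold lower than on plastic (59.5 in mOCd against 132.8 in mOCp) and 2.45-fold lower than in pOC. Over the whole course it was 22.1-fold lower in mOCd than in BMM and 9.88-fold lower in mOCp than in BMM. In mOCd against BMM 20.3% of eligible genes were lower and 18.8% higher, and in mOCp against BMM 19.4% were lower and 16.9% higher. P2ry6, P2ry12, P2rx4, S1pr1 and Ptger4, 5 of the 8 receptors, were counted as lower in both, and 0 as higher. Of the 6 eligible receptors, 5 in mOCd against BMM and 3 in mOCp against BMM were eligible only through BMM, so these counts show little beside the shares of all genes.

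P2ry12 encodes the ADP receptor through which platelets aggregate and microglia sense injury. Its single probe set read 95.1 in BMM, 17.3 in pOC, then 20.6 in mOCp and 1.6 in mOCd. Only the BMM value reached the 75th percentile, the pOC and mOCp values lay just above the floor, and the mOCd value lay under it. P2ry12 was 5.5-fold lower in pOC than in BMM (log2 ratio -2.46) and at least 6.02-fold lower in mOCd than in BMM. The log2 ratio of 0.25 between mOCp and pOC was inside the probe-set disagreement. Since P2ry12 is a platelet gene, a list of 8 megakaryocyte and platelet genes was set beside it. The 6 of them with a named probe set summed to 66.5 in BMM and 149 in pOC, and 218 in mOCp and 130.0 in mOCd, sums that rest largely on values near or under the floor. Of the 6, Ppbp alone reached the 75th percentile, in mOCp at 99.9, none was listed at 0, and their part in the P2ry12 values was not tested.

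P2ry14 encodes the receptor for UDP-glucose. Its course differed in outline: 30.1 in BMM, 54.5 in pOC, then 46.4 in mOCp and 18.9 in mOCd. All 4 values lay above the floor and under the 75th percentile, so P2ry14 was counted in no comparison. It was the 1 receptor of the 8 whose value was greater in pOC than in BMM, by 1.81-fold (log2 ratio 0.86). On dentin it stood 2.46-fold below plastic, at 18.9 in mOCd against 46.4 in mOCp. P2ry13, a further ADP receptor and the coding gene next to P2ry12, read 25.9 in BMM and lay under the floor in pOC, mOCp and mOCd.

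P2ry2, whose product responds to ATP and UTP, is the coding gene next to P2ry6. It read 35.9 in BMM and 8.5 in pOC, and 27.8 in mOCp and 15.1 in mOCd. The pOC and mOCd values lay under the floor and have no order, and no value reached the 75th percentile. P2ry2 was at least 2.48-fold lower in pOC than in BMM and at least 1.92-fold higher in mOCp than in pOC, both on dim values that were not counted. The other P2Y genes of the list, P2ry1, P2ry4 and P2ry10, were at or near the floor: P2ry1 and P2ry10 were under it on all 4 arrays, and P2ry4 exceeded it in pOC alone, at 21.3.

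P2rx4 encodes an ATP-gated cation channel that also resides in lysosomes. Its brightest probe set read 453.2 in BMM, 222.1 in pOC, then 185.1 in mOCp and 55.5 in mOCd. The values of pOC and mOCp differed by a log2 ratio of -0.26, inside the probe-set disagreement, with BMM above them and mOCd below. P2rx4 was 2.04-fold lower in pOC than in BMM, and 4.0-fold lower in mOCd than in pOC. The first of these ratios lay at the 2-fold limit (log2 ratio -1.03) and fell short of it under 3 of the 4 other scalings: spike-in (-0.86), quantile and cyclic loess (both just under 2-fold). With the mean over probe sets it was -0.02. P2rx4 was 3.34-fold lower in mOCd than in mOCp (log2 ratio -1.74), and 26 of 6915 eligible genes had a lower ratio. With the mean over probe sets the log2 ratio was -0.12 in mOCd against mOCp and -0.79 in mOCd against pOC. A further probe set of similar brightness read 432.8 in BMM and 149.5 in pOC, and 183.6 in mOCp and 83.3 in mOCd. It was 2.89-fold lower in pOC than in BMM and 2.2-fold lower in mOCd than in mOCp. In mOCd against pOC it was 1.79-fold lower, short of 2-fold, and in mOCp against pOC its log2 ratio was 0.30. The 2 remaining probe sets never exceeded 28.9 and did not follow this course, with log2 ratios of 0.92 (a bound) and 0.47 in pOC against BMM.

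The other P2X channels diverged. P2rx7, the ATP channel that forms large pores and triggers inflammasomes, read 140.6 in BMM, 60.1 in pOC, then 51.1 in mOCp and 75.8 in mOCd, and was 2.34-fold lower in pOC than in BMM. P2rx5 ran the other way, at 14.8 in BMM and 40.4 in pOC, and 93.2 in mOCp and 117.1 in mOCd. It was 2.31-fold higher in mOCp than in pOC and 2.9-fold higher in mOCd than in pOC. P2rx1 and P2rx2 were under the floor on all 4 arrays, and P2rx3 and P2rx6 exceeded it in mOCd alone, at 18.3 and 16.6.

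**Figure D2:**
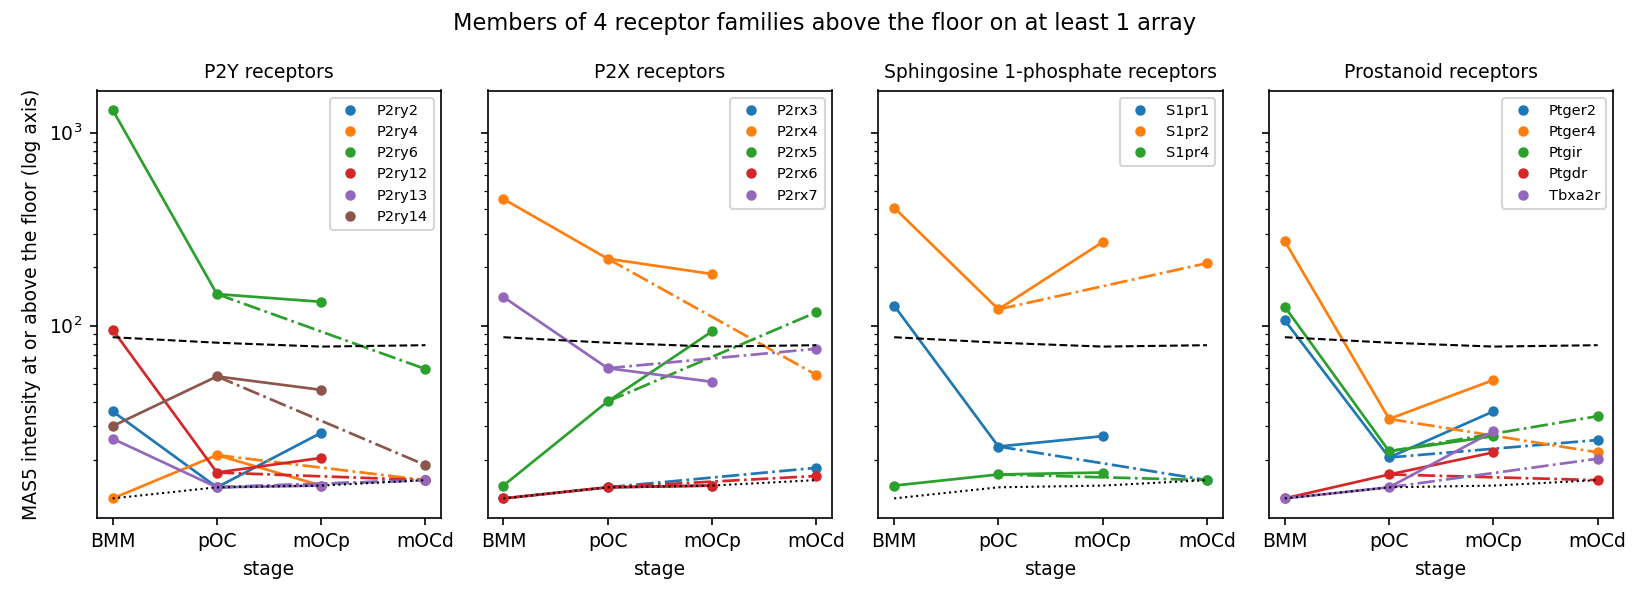
MAS5 intensity (log axis, values under the floor drawn at it) of the P2Y, P2X, sphingosine 1-phosphate and prostanoid receptors that exceeded the floor on at least 1 array, with 1 array per point, solid lines from BMM through pOC to mOCp and dash-dotted lines from pOC to mOCd. Black lines mark the floor (dotted) and the 75th percentile (dashed). P2rx5 stood at 117.1 in mOCd against 14.8 in BMM, and P2rx4 at 55.5 in mOCd against 453.2 in BMM.

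The sphingosine 1-phosphate receptors S1pr1 and S1pr2 are known in mice for opposite actions on osteoclast precursors: S1P1 draws them towards the lipid and S1P2 repels them. S1pr1 read 126.8 in BMM, 23.6 in pOC, then 26.7 in mOCp and 3.3 in mOCd on its single probe set. It exceeded the 75th percentile in BMM alone and lay under the floor on dentin. S1pr1 was 5.37-fold lower in pOC than in BMM (log2 ratio -2.43) and at least 8.03-fold lower in mOCd than in BMM. The pOC and mOCp values differed by a log2 ratio of 0.18, inside the probe-set disagreement.

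S1pr2 read 408.4 in BMM and 121.4 in pOC, and 271.1 in mOCp and 210.6 in mOCd, above the 75th percentile at every stage. It was 3.36-fold lower in pOC than in BMM (log2 ratio -1.75) and 2.23-fold higher in mOCp than in pOC (log2 ratio 1.16), the only receptor of the 8 counted as higher in that comparison. The log2 ratio between mOCd and mOCp was -0.36, inside the disagreement of 0.444. On dentin S1pr2 stood 1.73-fold above pOC, short of 2-fold. A second, dimmer probe set did not share the drop in pOC: it read 53.0 in BMM, 51.6 in pOC, then 70.9 in mOCp and 68.2 in mOCd, with a log2 ratio of -0.04 in pOC against BMM. Averaged over both probe sets, that ratio was -0.89, short of 2-fold. Beside this, 5 of the 10 macrophage markers (Adgre1, Cd14, C1qa, C1qb and C1qc) were higher in mOCp than in pOC, and their part in the S1pr2 value was not tested. S1pr2 no longer passed 2-fold in mOCp against pOC when arrays were scaled to the spike-in controls (log2 ratio 0.73). Among the other receptors of the family, S1pr3 and S1pr5 were under the floor on all 4 arrays, and S1pr4 did not exceed 17.3.

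Among genes that make, export or break down the lipid, Sphk1, Spns2 and Plpp1 were higher in pOC than in BMM. Sphk1, a kinase that makes sphingosine 1-phosphate, read 8.6 in BMM and 89.0 in pOC, and 446.1 in mOCp and 328.6 in mOCd. It was at least 7.01-fold higher in pOC than in BMM and 5.01-fold higher in mOCp than in pOC. Spns2, a transporter that exports sphingosine 1-phosphate, read 9.5 in BMM, 335.0 in pOC, then 619.2 in mOCp and 1039.8 in mOCd, at least 26.4-fold higher in pOC than in BMM and 3.1-fold higher in mOCd than in pOC. Plpp1, a lipid phosphatase that can remove the phosphate, was 6.37-fold higher in pOC than in BMM, and Sgpp1, an intracellular sphingosine 1-phosphate phosphatase, was 2.67-fold lower. Of the 12 genes in this list, 10 were measured in pOC against BMM, with a median log2 ratio of 0.36. There 3 of 8 eligible were higher and 1 was lower, beside 11.1% and 13.2% of all eligible genes. Sphk1, Spns2 and Plpp1 were eligible there only through pOC, so being eligible and being higher went together. The second kinase gene, Sphk2, stood at 168.6 in pOC against 84.4 in BMM, just short of 2-fold, and Mfsd2b, a further exporter, was under the floor on all 4 arrays. In mOCd against pOC, 3 of 8 eligible were higher (Sphk1, Spns2 and Plpp1) and 1, the phosphatase gene Plpp2, was lower. Of all eligible genes 10.8% were higher and 12.3% lower in that comparison.

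Ptger4 read 273.0 in BMM and 32.8 in pOC, and 52.2 in mOCp and 22.0 in mOCd. Only BMM exceeded the 75th percentile, and the 3 osteoclast-lineage values lay between it and the floor. Ptger4 was 8.32-fold lower in pOC than in BMM (log2 ratio -3.06), and 117 of the 7256 eligible genes had a lower ratio. In mOCd it was 12.4-fold lower than in BMM. Between the mature cultures it stood at 22.0 in mOCd against 52.2 in mOCp (log2 ratio -1.25), too dim to be counted. Its second probe set had the same order, with 48.9 in BMM, 9.2 in pOC, then 18.4 in mOCp and 2.6 in mOCd, the pOC and mOCd values being under the floor, and it was at least 3.37-fold lower in pOC than in BMM.

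Besides Ptger4, 2 further prostanoid receptors that signal through cyclic AMP were lower in pOC than in BMM. Ptger2, the EP2 receptor, was 5.14-fold lower in pOC, at 20.7 against 106.3 in BMM. Ptgir, the prostacyclin receptor, was 5.6-fold lower, at 22.3 against 124.9 in BMM. Both were eligible only through BMM, as was Ptger4, so being eligible and being lower went together. Of 9 prostanoid receptors 4 were measured in this comparison, with a median log2 ratio of -2.42. Of the 3 eligible, 3 were lower and 0 higher, beside 13.2% and 11.1% of all eligible genes. The thromboxane receptor Tbxa2r, under the floor in BMM and pOC, read 28.3 in mOCp and 20.4 in mOCd. Ptger1, Ptger3, Ptgdr2 and Ptgfr were under the floor on all 4 arrays, and Ptgdr, a prostaglandin D2 receptor that also acts through cyclic AMP, stood at 16.9 in pOC against a value under the floor in BMM (log2 ratio 0.41, a bound) and did not exceed 22.0.

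Enzymes of prostaglandin synthesis were split. Ptges, the inducible prostaglandin E synthase, read 4.5 in BMM and 67.8 in pOC, and 268.1 in mOCp and 144.9 in mOCd, and was 3.95-fold higher in mOCp than in pOC. Ptges2, another prostaglandin E synthase, was 2.73-fold higher in pOC than in BMM. Hpgds, the haematopoietic prostaglandin D synthase, was 10.3-fold lower in pOC than in BMM, Tbxas1, the thromboxane synthase, 3.08-fold lower and Abcc4, a transporter that exports prostaglandins, 2.78-fold lower. Pla2g4a, the phospholipase that frees arachidonic acid, was 2.02-fold lower in mOCp and 3.07-fold lower in mOCd than in pOC. Ptgs2, the inducible cyclooxygenase, was under the floor in pOC and read 55.5 in mOCp and 48.3 in mOCd. Of 13 genes listed, 11 had a named probe set. In pOC against BMM, 1 of 5 eligible was higher and 3 were lower, beside 11.1% and 13.2% of all eligible genes. Hpgds and Abcc4 were eligible there only through BMM, and Ptges2 only through pOC. In mOCp against pOC, 2 of 5 eligible were higher and 1 was lower, beside 8.8% and 11.4% of all eligible genes. The higher ones, Ptges and Hpgds, were eligible there only through mOCp, so being eligible and being higher went together.

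In the comparison of mOCp with pOC, 1 of the 8 receptors, S1pr2, was higher and 0 were lower, while 8.8% of 7192 eligible genes were higher and 11.4% lower. The median log2 ratio of the 8 was 0.21, beside 0.01 over all measured genes, and 5 of the 8 ratios lay above 0, or 3 with spike-in scaling, where P2ry12 and S1pr1 turned below 0. In mOCd against pOC, 0 were higher and 2, P2ry6 and P2rx4, were lower, with 10.8% and 12.3% of 7230 eligible genes higher and lower. Both were eligible only through the pOC value. The median of the 7 measured receptors was -0.58, a value set by a bound, beside 0.01 over all measured genes. These 2 comparisons share the pOC array, and both span 2 further days of culture, which cannot be told apart from maturation.

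In mOCd against mOCp, 2 receptors were lower (P2ry6 and P2rx4) and 0 higher, while 2.55% of 6915 eligible genes were lower and 2.15% higher. Both were eligible only through the mOCp value. All 8 receptors had a log2 ratio below 0, 3 of them as bounds (P2ry2, P2ry12 and S1pr1), with a median of -0.99 beside 0.01 over all measured genes. Under each of the 4 other scalings of the arrays the 8 ratios stayed below 0. The direct ratios ran from -0.36 for S1pr2 to -1.74 for P2rx4. Of the 10 macrophage markers, 4 (Adgre1, C1qa, C1qb and C1qc) were also lower in mOCd than in mOCp and 0 were higher, and the transferrin receptor control had a 3' to 5' log2 signal ratio of 1.70 in mOCd against 0.84 in mOCp, which can accompany RNA that is more degraded or copied less fully. The same log2 ratio of Gapdh was -0.34 in mOCd against -0.29 in mOCp, and that of actin 0.28 in mOCd against 0.20 in mOCp. The part of markers or RNA quality in the receptor values was not tested.

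**Figure D3:**
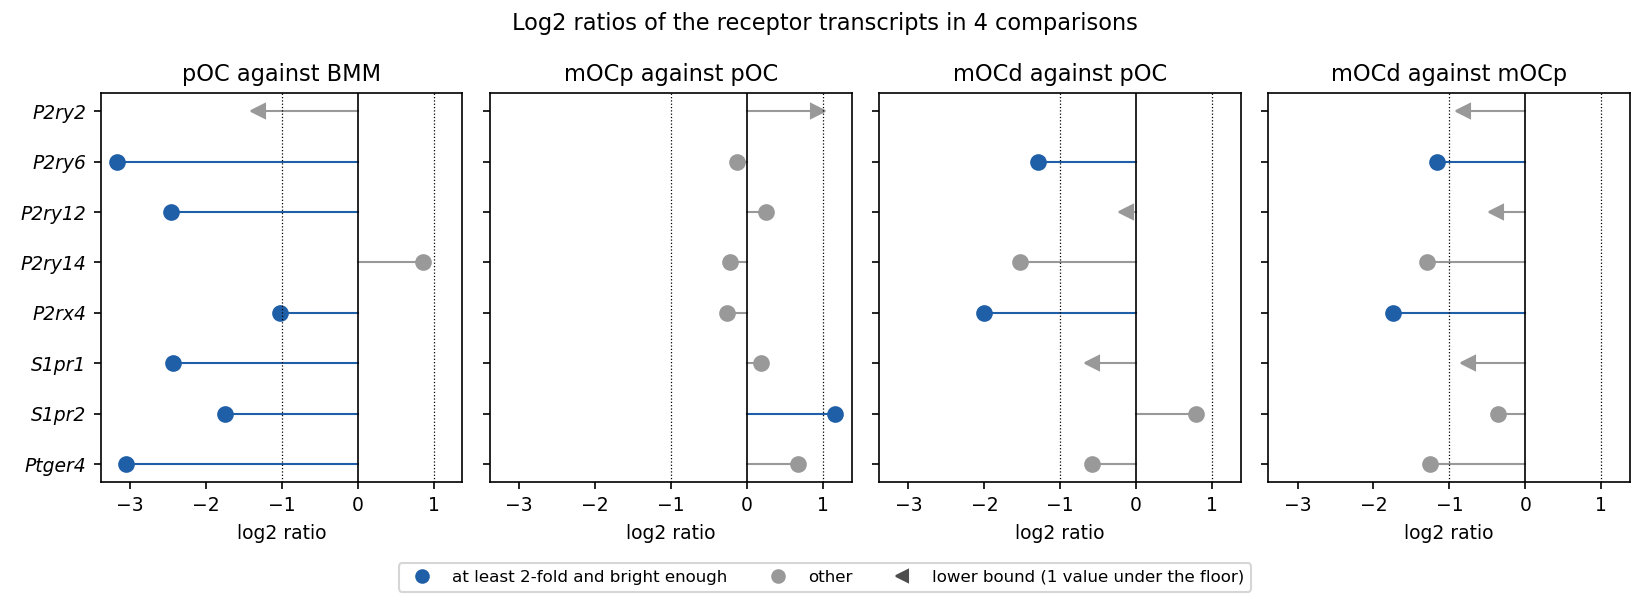
Log2 ratios of the 8 receptors in the 4 comparisons, with the group named first over the group named second. Blue symbols mark ratios of at least 2-fold whose brighter value reached the 75th percentile, grey symbols the others, triangles mark bounds, dotted lines mark 2-fold, and P2ry2 has no symbol in mOCd against pOC because both values lay under the floor. P2ry6 had the lowest ratio in pOC against BMM, at -3.17, and all 8 ratios lay below 0 in mOCd against mOCp.

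The families around these receptors were read from lists of other receptors for the same kinds of mediator. Of 47 other receptors in 7 lists, 41 had a named probe set. Of these, 27 exceeded the floor somewhere and 10 reached the 75th percentile on an array. In pOC against BMM 9 were eligible, 6 of them lower and 2 higher, beside 13.2% and 11.1% of all eligible genes. The median log2 ratio of the 20 measured was 0.06. The lower ones not yet described were Lpar6, a lysophosphatidic acid receptor (3.75-fold), Cysltr1, a cysteinyl leukotriene receptor (3.43-fold), and Gpr84, a receptor for medium-chain fatty acids (4.59-fold). The 2 higher ones were Lpar1, at 105.8 in pOC against 25.5 in BMM (4.15-fold), and Fpr2, a formyl peptide and lipoxin receptor, at 84.1 in pOC against 28.6 in BMM (2.94-fold). Of the lower ones, P2rx7, Lpar6, Ptger2, Ptgir and Cysltr1 were eligible only through BMM, and both higher ones only through pOC. For them, being eligible and being counted went together. In mOCp against pOC 6 of these receptors were eligible, 4 higher and 0 lower, beside 8.8% and 11.4% of all eligible genes. The higher ones were P2rx5, Fpr2 at 4.17-fold, Gpr84 at 2.28-fold and Gpr183, the oxysterol receptor that guides leukocyte migration, at 2.33-fold. Of these, P2rx5 was eligible there only through mOCp. Gpr183 read 337.4 in BMM, 452.5 in pOC, then 1053.1 in mOCp and 1425.9 in mOCd. In mOCd against mOCp 6 were eligible, 3 lower and 0 higher, beside 2.55% and 2.15% of all eligible genes. The lower ones were Cysltr1 (2.39-fold, eligible only through mOCp), Fpr2 (2.55-fold) and Gpr84 (2.03-fold). Neutrophil markers moved with Fpr2: the 8 of the list summed to 324 in BMM and 842 in pOC, and 1886 in mOCp and 969 in mOCd. Of the 8, 3 were higher in pOC than in BMM (S100a8, S100a9 and Lcn2), 3 higher in mOCp than in pOC (Ngp, S100a8 and Lcn2) and 2 lower in mOCd than in mOCp (S100a8 and Lcn2). Only S100a8 and Lcn2 were counted in all 3 of these comparisons. Ngp read 44.0 in BMM and 44.2 in pOC, and 101.2 in mOCp and 100.0 in mOCd. Elane exceeded the floor in pOC alone, at 41.0. None was at 0, and Camp, Ltf, Elane and Mpo stayed under the 75th percentile at every stage. The list's part in the Fpr2 values was not tested. Adora3, the 1 adenosine receptor with a named probe set, stayed under the floor in BMM and pOC and read 17.5 in mOCp and 22.8 in mOCd.

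Genes that supply or clear nucleotides and adenosine were read from 2 lists. Of 15 genes for nucleotide release and breakdown, 13 had a named probe set. In pOC against BMM 1 of 5 eligible was higher and 0 were lower, beside 11.1% and 13.2% of all eligible genes. That gene was Gja1, which encodes connexin 43, a channel protein through which ATP can leave the cell, at 499.3 in pOC against 142.9 in BMM. The ATP-release channel Panx1 read 136.4 in BMM and 145.2 in pOC, and 142.6 in mOCp and 118.8 in mOCd. Entpd1, the ectoenzyme CD39 that degrades ATP and ADP, read 69.7 in BMM, 21.0 in pOC, then 21.2 in mOCp and 4.1 in mOCd, never reaching the 75th percentile. In the adenosine list 9 of 10 genes had a named probe set. Of 8 eligible in pOC against BMM, 2 were higher and 2 lower, beside the same shares of all genes. Ada, adenosine deaminase, was 2.08-fold higher in pOC than in BMM, and Ahcy, which hydrolyses S-adenosylhomocysteine, 2.02-fold higher. Ada was eligible there only through pOC. Pnp, which splits inosine and guanosine, was 2.76-fold lower in pOC and Ampd3, an AMP deaminase, 4.48-fold lower. Adk, the kinase that turns adenosine into AMP, stood at 174.0 in mOCp against 351.0 in pOC and at 127.3 in mOCd, 2.76-fold lower on dentin than in pOC. Ampd2, a further AMP deaminase, was 7.0-fold lower in mOCd than in pOC. In mOCd against pOC, 2 of 8 eligible were lower (Adk and Ampd2) and 0 higher, beside 12.3% and 10.8% of all eligible genes. In mOCp against pOC, 2 of 8 were lower (Adk and Ampd2) and 1 higher (Ampd3), beside 11.4% and 8.8%.

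**Figure D4:**
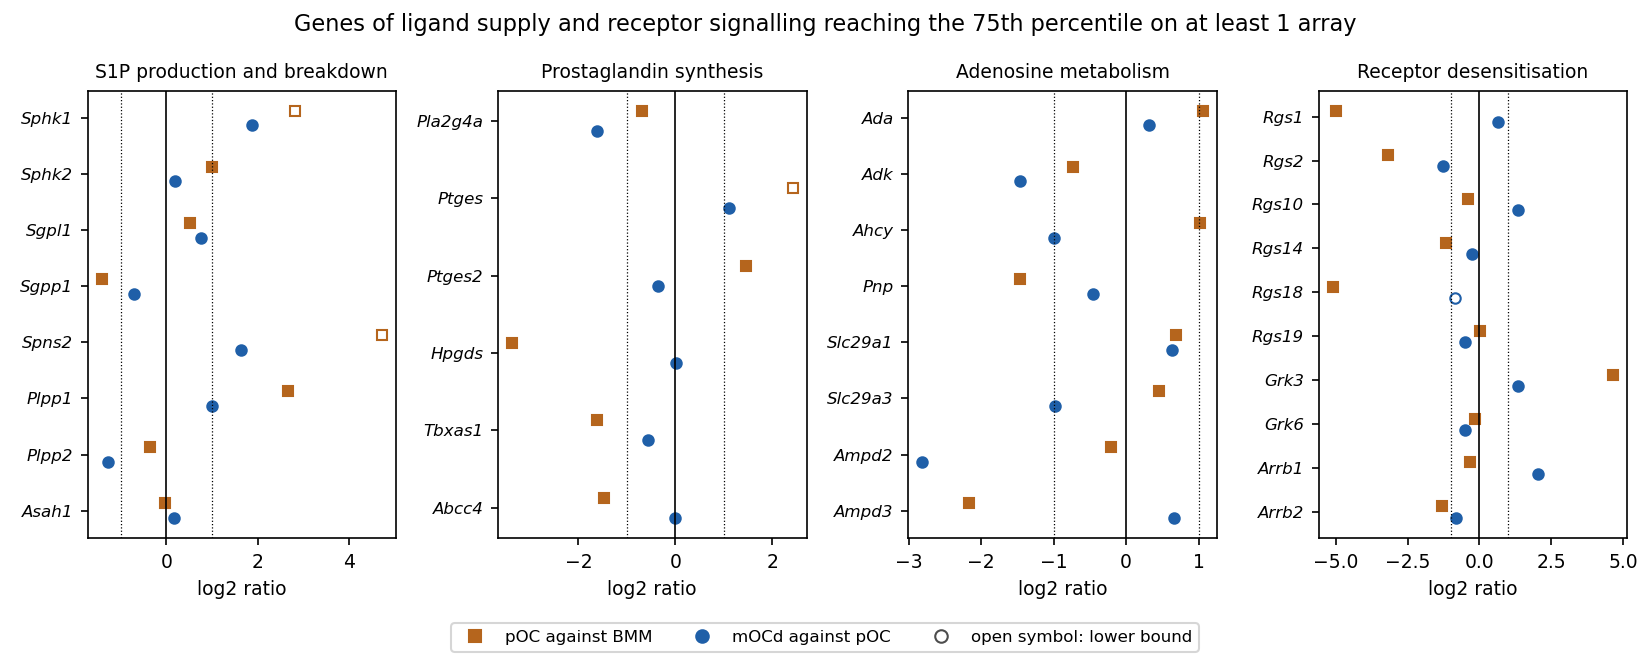
Log2 ratios in pOC against BMM (brown squares) and in mOCd against pOC (blue circles) for genes of 4 lists that reached the 75th percentile on at least 1 array. Open symbols are bounds and dotted lines mark 2-fold. Spns2 lay at 4.72 (a bound) and Grk3 at 4.65 in pOC against BMM, and Rgs18 at -5.10.

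For the 3 receptors with all values above the floor, a log2 range of at least 2 and a value at the 75th percentile or above, the genes of most similar course were sought, among 5216 to 6460 candidates, by the mean absolute difference of log2 intensities, centred on each gene's mean over the 4 arrays. For P2ry6 these were Ifi27l2a, an interferon-induced gene (difference 0.03), Rgs2, a GTPase activator that damps G protein signalling (0.06), and Stab1, a scavenger receptor (0.09). Rgs2 read 1404.8 in BMM and 153.9 in pOC, and 127.5 in mOCp and 63.3 in mOCd. For P2rx4 they were Dock1, an activator of the GTPase Rac (0.09), the matrix protein gene Emilin2 (0.10) and Clec5a, a myeloid lectin receptor (0.13). For Ptger4 they were Niban1 (0.09), the inhibitory collagen receptor Lair1 (0.09) and the kinase gene Stk10 (0.13). Over 4 arrays such likeness is a description.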

How the data were processed

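RNA from 4 stages of osteoclast formation was measured on single-channel arrays, 1 array per stage. Per the labels, total RNA was reverse transcribed with an oligo(dT) primer and labelled with biotin. The deposited table held linear intensities, 1 per probe set, computed with MAS5 per the submitters' processing notes (its version is not given in the sources used here). Trimmed by 2% at either end, the deposited intensities averaged 100.0 on all 4 arrays, so a difference in total mRNA between stages is not visible, and MAS5's background subtraction leaves dim values imprecise. Of 45101 probe sets, 64 were controls. Names came from a platform annotation dated 2016.

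Values under the 50th percentile of an array were set to it. Where a gene had several probe sets, that of highest mean floored log2 intensity stood for it. A gene was counted when its ratio was at least 2-fold and its brighter value at or above the 75th percentile. Zeros were set to 0.05 before log2 for the likeness search. Genes named were the listed receptors, their family relatives, markers, some members of the wider lists, and the 3 nearest genes in course. Not every list member counted in a comparison was named, and some named ones, such as Panx1, were not counted. The members and lists were chosen with earlier results of these data known. The counting was tested on simulated data. Alternatives were median, spike-in, quantile and cyclic loess scaling, other floors (25th and 60th percentile), no brightness condition, the mean over probe sets, no suffixed probe sets, and 1.5-fold or 3-fold limits. Promoters were read from RefSeq, where 7 of the 10 receptors had an entry. Python 3.11.15, pandas 2.3.3, R 4.3.3 and limma 3.58.1 were used.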

Additional observations from a re-analysis of the deposited data

How the results depend on the processing

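Of 88 counts of receptors under alternatives, 77 stayed within 1.5 times the reported count. In mOCp against pOC the 1 higher receptor, S1pr2, became 0 with spike-in scaling, with the mean over probe sets and at 3-fold. In mOCd against pOC the 2 lower receptors became 1 with the mean over probe sets, without suffixed probe sets and at 3-fold, and 1 receptor, S1pr2, was higher at 1.5-fold. In mOCd against mOCp the 2 lower became 4 with no brightness condition, and 1 with the mean over probe sets, without suffixed probe sets and at 3-fold. In pOC against BMM the 6 lower receptors ranged from 4 to 7. P2rx4 reversed where suffixed probe sets were left out, which leaves 2 dim probe sets: its log2 ratio was then 0.47 in pOC against BMM, 0.31 in mOCd against pOC and 0.69 in mOCd against mOCp. Of 280 single ratios, 250 moved by less than the probe-set disagreement.

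Scaling set the balance of all genes. Of the genes counted in pOC against BMM, 45.8% were higher as reported, 32.6% after median scaling and 56.7% with spike-ins. The median of all genes, 0.191 as reported, becomes 0 after median scaling. That median takes in genes under the floor on both arrays, whose ratio is only that of the floors. Over eligible genes the median was 0.05 as reported. In mOCp against pOC 43.6% were higher as reported and 14.6% with spike-ins. Spike-ins set the median of all genes, again that of the floors, to -0.402 against 0.030 as reported. Over eligible genes it was -0.03 as reported. In mOCd against pOC 46.8% were higher as reported, 36.8% after median scaling and 21.7% with spike-ins, and in mOCd against mOCp 45.8%, 32.0% and 56.9%. No replicate could be left out with 1 array per stage. No paired analysis was possible because each group holds 1 array. Dim values limit P2ry2, P2ry12, P2ry14 and S1pr1, whose ratios move with the floor.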

Other observations

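Genes that carry and end the signals of these receptors also differed between the stages. In the list of receptor desensitisation, 14 of 15 genes had a named probe set. In pOC against BMM 1 of 10 eligible was higher and 5 were lower, beside 11.1% and 13.2% of all eligible genes. The median log2 ratio of the 14 measured was -0.37. Rgs1 and Rgs18, GTPase activators that shorten G protein signals, stood at 26.1 and 28.2 in pOC against 830.8 and 965.3 in BMM (31.8-fold and 34.2-fold lower). Both were eligible only through BMM. Rgs2, Rgs14 and the arrestin gene Arrb2 were 9.13-fold, 2.26-fold and 2.46-fold lower. Grk3, a receptor kinase, read 28.6 in BMM, 718.2 in pOC, then 1180.6 in mOCp and 1827.1 in mOCd. It was 25.1-fold higher in pOC than in BMM and was eligible there only through pOC. In mOCd against pOC, 8 were eligible. Rgs10 (2.53-fold), Grk3 (2.54-fold) and Arrb1 (4.05-fold) were higher and Rgs2 lower (2.43-fold), beside 10.8% and 12.3% of all eligible genes.

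Among 9 adenylyl cyclases, the enzymes that make cyclic AMP, Adcy3 alone was counted, as higher in pOC than in BMM, in mOCp than in pOC and in mOCd than in pOC. Each of these comparisons had 3 eligible cyclases, and 11.1%, 8.8% and 10.8% of all eligible genes were higher in them. In pOC against BMM, Adcy3 was eligible only through pOC, so being eligible and being higher went together. It read 33.4 in BMM and 491.2 in pOC, and 1050.7 in mOCp and 1738.1 in mOCd. Pde2a, a phosphodiesterase that degrades cyclic nucleotides, was highest in pOC, with 76.1 in BMM, 653.0 in pOC, then 285.3 in mOCp and 225.0 in mOCd. Crem, a transcription factor gene induced by cyclic AMP, was 6.66-fold lower in pOC than in BMM and 4.66-fold higher in mOCp than in pOC (121.9 in BMM, 18.3 in pOC, then 85.3 in mOCp and 75.2 in mOCd). Pde2a and Crem belong to a list of 13 genes, of which 4 were eligible in pOC against BMM. There 1 was higher (Pde2a) and 2 lower (Pde3b and Crem), beside 11.1% and 13.2% of all eligible genes. The median log2 ratio was -0.10. Pde2a was eligible there only through pOC and Crem only through BMM. In mOCp against pOC, 1 of 3 eligible was higher (Crem, eligible only through mOCp) and 1 lower (Pde2a), beside 8.8% and 11.4%. Of 11 G protein alpha subunits, 6 were eligible in each comparison. Gna12 was 2.26-fold lower in pOC than in BMM, where 13.2% of all eligible genes were lower. Gnaq and Gna13 were 3.18-fold and 3.73-fold higher in mOCd than in pOC, where 10.8% of all eligible genes were higher. Gna13 read 960.4 in BMM and 953.0 in pOC, and 1802.4 in mOCp and 3559.3 in mOCd.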
